A study of Mus musculus with 3 samples.

Results

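The genes described here encode the subunits of the transcription factor NF-kB and the proteins that hold it in check: Nfkb1, Nfkb2, Rel, Rela and Relb, the inhibitors Nfkbia, Nfkbib, Nfkbie and Nfkbiz, and Tnfaip3. They were taken as every probe set (a group of short probes read together as 1 value) of the array annotated to 1 of these symbols alone. That rule gave 19 probe sets of the 45101 on the array, for 9 of the 10 genes, out of 18193 genes named by a probe set of their own. Nfkb1 was not analysed here. All 19 probe sets passed the filter on low values, which kept 27022.

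RNA came from follicular regulatory T (Tfr) cells of the spleen, T cells that carry Foxp3 and restrain the germinal centre reaction, in C57BL/6 mice 8 days after immunization with the antigen OVA. The sort used lineage-depleted cells and the surface markers CXCR5, CD4, CD25, CD44 and GITR. Cells of 4 wild type (WT) mice were pooled for 1 array, and cells of 8 Rptor-null mice for each of 2 further arrays. Rptor-null mice carried CD4-Cre and 2 floxed copies of Rptor, written Rptor fl/fl, so deletion is driven in T lineage cells that express or have expressed Cd4 and not in Tfr cells alone. The sources used here give neither age nor sex, and do not say whether the WT mice carried Cre or a floxed allele. Rptor encodes raptor, the subunit that defines the growth-controlling kinase complex mTORC1, and the comparison asks how Tfr cell expression differs without it. A WT value therefore has no error of its own, and a mean ± SD (n = 2) refers to the Rptor-null pools.

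NF-kB works as pairs of subunits that share a DNA-binding Rel homology domain. In resting cells the pairs are kept out of the nucleus by IkB proteins, which the IkB kinases mark for destruction after signals from antigen receptors, TNF-family receptors or Toll-like receptors. A slower branch processes the Nfkb2 product to a form that pairs with RelB. Several inhibitors are themselves NF-kB targets, so the pathway makes its own brakes. In regulatory T cells the pathway is known for the need for c-Rel in the making of Foxp3-expressing cells.

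To show this feedback arrangement, the promoters of member genes were searched for the kB consensus, the DNA motif to which NF-kB subunits bind, on both strands of the 250 bases before each annotated start. RefSeq promoters (GRCm38.p6) matched 7 of the 9 measured genes with 10 windows, since Nfkb2 has 3 and Tnfaip3 2 annotated starts. The consensus was found in 7 of these 10 windows, for 5 of the 7 genes (Nfkb2, Rel, Nfkbia, Nfkbie and Tnfaip3), beside 3.9% of 32851 promoter windows of the same length. The windows of Rela and Nfkbib held no match. A match is a description of the sequence and not evidence of binding. The windows of 4 genes with a match are printed from 5′ to 3′ on the gene's strand, with bases inside a match in capitals. They cover chr11:23770970-23771219 (minus strand) for Rel, chr12:55492648-55492897 (minus) for Nfkbia, chr17:45555450-45555699 (plus) for Nfkbie and chr10:19015411-19015660 (minus) for Tnfaip3.
Rel: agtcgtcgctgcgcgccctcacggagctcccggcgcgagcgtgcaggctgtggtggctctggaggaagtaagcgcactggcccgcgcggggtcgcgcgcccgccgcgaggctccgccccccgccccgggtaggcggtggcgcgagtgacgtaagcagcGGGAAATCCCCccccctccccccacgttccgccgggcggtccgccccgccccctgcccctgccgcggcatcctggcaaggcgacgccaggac
Nfkbia: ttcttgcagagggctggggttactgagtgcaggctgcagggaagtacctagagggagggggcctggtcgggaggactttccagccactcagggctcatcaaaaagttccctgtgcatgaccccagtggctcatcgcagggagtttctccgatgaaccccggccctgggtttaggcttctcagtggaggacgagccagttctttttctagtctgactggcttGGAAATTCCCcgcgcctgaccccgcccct
Nfkbie: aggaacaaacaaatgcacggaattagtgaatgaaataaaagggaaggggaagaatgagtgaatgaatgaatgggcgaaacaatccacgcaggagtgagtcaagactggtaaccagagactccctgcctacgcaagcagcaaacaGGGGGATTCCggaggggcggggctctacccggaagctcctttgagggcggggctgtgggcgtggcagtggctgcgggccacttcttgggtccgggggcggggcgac
Tnfaip3: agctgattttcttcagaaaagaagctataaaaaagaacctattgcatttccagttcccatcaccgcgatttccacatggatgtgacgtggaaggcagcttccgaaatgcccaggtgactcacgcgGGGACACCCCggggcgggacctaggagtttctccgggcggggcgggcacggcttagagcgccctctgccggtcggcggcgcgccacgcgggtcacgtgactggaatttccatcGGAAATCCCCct
The Nfkbia match is on the other strand. It reads GGAAATTCCC as printed on the gene's strand and begins 29 bases before the start. In Rel a pair of matches that overlap begin 92 and 91 bases before it, and the Tnfaip3 matches begin 125 and 12 bases before it. Nfkbie has the single match GGGGGATTCC, which begins 106 bases before the start. In the first Nfkb2 window GGGAATTCCC begins 39 bases before the start, in overlap with a second match, and GGGGCTTTCC 11 bases before it. Thus motif-bearing promoters were found both among subunits and among inhibitors.

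**Figure D1:**
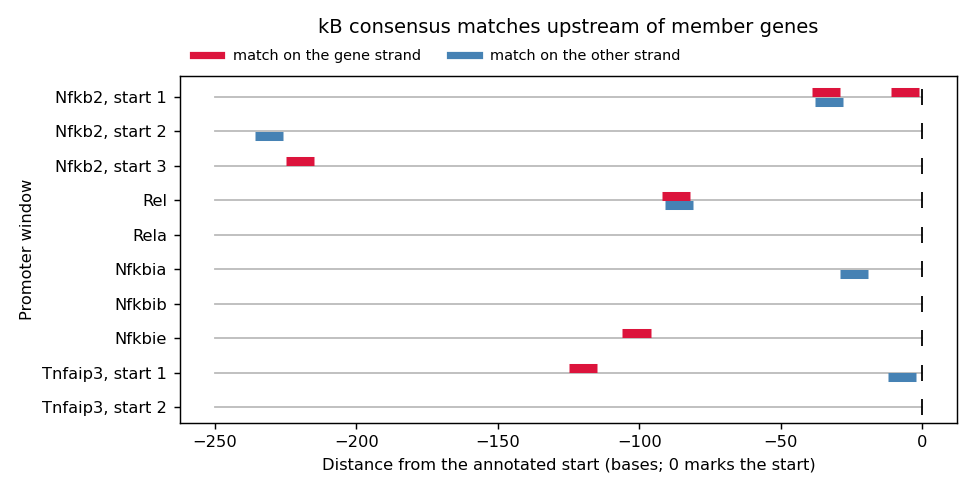
Each line is the window of 250 bases before an annotated start of a member gene, with distance from the start on the x axis in bases, and bars mark matches to the kB consensus on the gene strand (red) or the other strand (blue). Matches lie in 7 of 10 windows, and the Nfkbia match begins 29 bases from the start.

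The arrays carried some general differences. The ratio of 3′ to 5′ signal, which rises as RNA is shortened or labelled from the 3′ end, was 1.40 in WT against 2.65 and 2.87 in the Rptor-null pools for beta-actin, and 1.11, 1.94 and 2.58 for Gapdh. The T cell list had 5 of 9 tested markers lower and 0 higher. Its summed intensity was 43783 in WT against 28972 and 28362 in the Rptor-null pools, and no marker was at 0. Foxp3 (752, 587 and 423; adjusted p = 0.119) and Cxcr5 (713, 374 and 392; adjusted p = 0.0152), which define Tfr cells, were measured on all 3 arrays. Macrophage and monocyte markers had 6 of 10 higher and 0 lower, with a summed intensity of 38479 in WT against 50325 and 56306 in the Rptor-null pools. Basophil and mast cell markers had 2 of 4 higher (783, then 1365 and 1551 in sum). Dendritic cell markers had 0 of 5 past the test (607, then 794 and 857 in sum, all higher in both pools), and B cell markers 0 of 5 (590, then 506 and 515). The dendritic and B cell lists held 2 and 0 genes with an unadjusted limma p under 0.05. The other lists gave 3 of 6 regulatory T cell, 3 of 5 follicular T cell and 1 of 2 CD8 T cell markers lower, and 0 of 4 NK cell, 0 of 4 neutrophil and 0 of 1 erythroid markers past the test, of which 3, 2 and 0 had an unadjusted limma p under 0.05. The part of these other cells and of RNA quality in the differences below was not tested, and in sorted pools fewer cells of a type and less RNA per cell cannot be told apart. Rptor read 365 in WT against 353 and 412 in the Rptor-null pools. Where its probes lie relative to the floxed exons is not given, so this is no check of the deletion.

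Across the NF-kB genes the differences between Rptor-null and WT cells were of about the size seen over all probe sets. The median log2 difference, whatever its sign, was 0.19 beside 0.20. Of the 19 probe sets 1 was higher, 0 were lower and 18 did not pass an adjusted p of 0.05 (limma, Benjamini-Hochberg over 27022 probe sets), a share of 5.26% beside 8.92% of all probe sets (2.81% higher and 6.11% lower). The probe set that rose belongs to Nfkbia, and the other 4 probe sets of that gene did not pass. An unadjusted p under 0.05 was found for 7 of the 19, beside 25.0% of all probe sets. Both Rptor-null pools lay on one side of WT for 16 of 19 probe sets, 7 above and 9 below, beside 79.6% of all probe sets (35.8% above and 43.9% below). After quantile normalization the members' split was 9 above and 6 below, and after median centring 9 above and 7 below. Of the calls over all probe sets 31.5% were higher, against 49.1% after quantile normalization and 43.3% after median centring. The median log2 difference of the 19 was -0.058, beside -0.029 over all probe sets. It was 0.065 after quantile normalization, so no direction is given for the group.

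**Figure D2:**
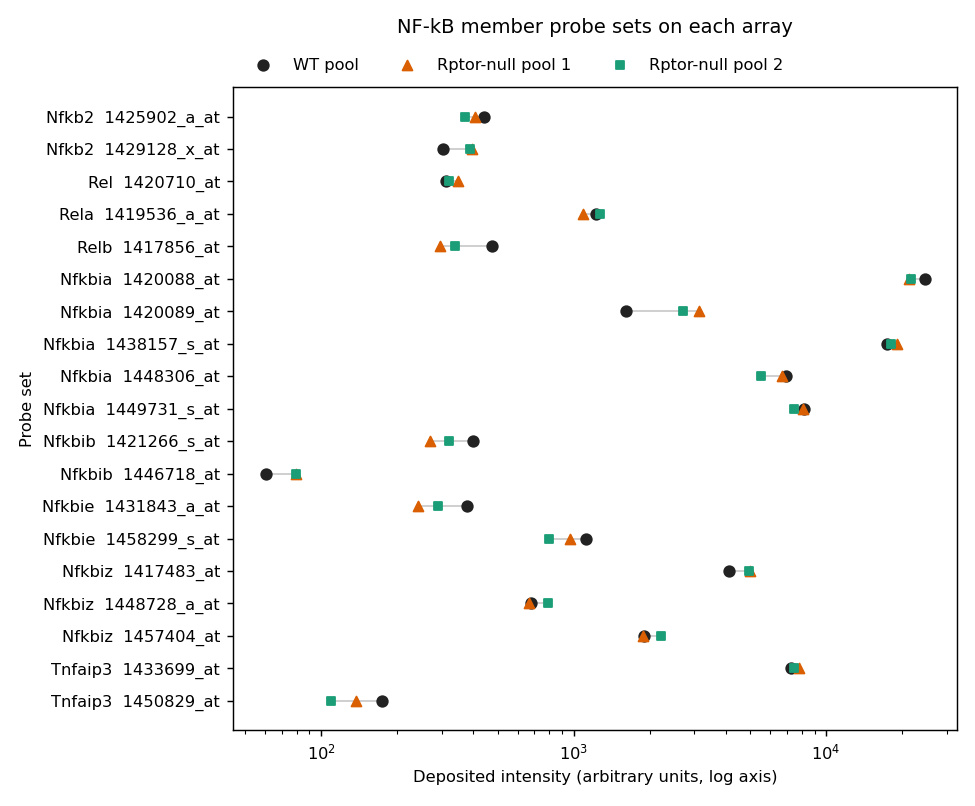
Deposited intensity of each member probe set on a log axis, with the WT pool as a circle and the 2 Rptor-null pools as a triangle and a square. The widest gap is that of Nfkbia 1420089_at, at 1610 in WT against 3126 and 2706 in the Rptor-null pools, and Relb lies at 475, 295 and 338.

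Among the subunits, Relb, which pairs with the processed Nfkb2 product in the slower branch, had the largest difference. Its probe set 1417856_at read 475 in WT against 295 and 338 in the Rptor-null pools. Both Rptor-null pools were below WT by more than they differed from each other. The mean of 317 ± 30.3 (SD, n = 2) gave a log2 difference of -0.56 ± 0.15 (SE), or 1.48-fold, on log2(intensity + 16), with an adjusted p of 0.0618 (limma). That value is the nearest to the threshold among those not past it. The difference did pass after median centring (adjusted p = 0.0495), with a filter at the 60th percentile (adjusted p = 0.0447) and with 1 probe set a gene (adjusted p = 0.0369). It also passed in the fit where each gene was read as the mean of its probe sets (adjusted p = 0.0239, limma over 12721 genes). Relb has 1 probe set, so its log2 difference was the same -0.56 there, with that filter and with 1 probe set a gene. Only the other features in the fit differed. The share of all features passing was 12.3% after median centring, 16.2% with that filter and 15% with 1 probe set a gene, beside 8.92% in the main fit. These passes are thus not independent support for Relb. It lay further from the threshold after quantile normalization (-0.45, adjusted p = 0.119), without the variance trend (adjusted p = 0.109) and with no filter (adjusted p = 0.102).

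Nfkb2 encodes p100, the precursor of p52 and itself an IkB-like inhibitor. Its probe set 1425902_a_at read 441 in WT against 408 and 371 in the Rptor-null pools, and 1429128_x_at read 304 in WT and 397 and 387. Both Rptor-null pools were thus below WT on the first and above it on the second. The log2 differences were -0.17 ± 0.14 (SE) and 0.35 ± 0.13 (SE), and neither passed (adjusted p = 0.495 and 0.166, limma). The second probe set ends in _x_at, a class that can also match other transcripts.

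Rel encodes c-Rel, the subunit most tied to lymphocyte activation, and Rela encodes p65, the main activating subunit in most cells. Rel read 312 in WT against 347 and 322 in Rptor-null cells, with a log2 difference of 0.10 ± 0.14 (SE; adjusted p = 0.729, limma). Rela read 1221 in WT against 1085 and 1268 in the Rptor-null pools, so that the WT value lay between them. Its log2 difference was -0.06 ± 0.13 (SE; adjusted p = 0.827, limma) and was 0.07 after quantile normalization. The 95% intervals of -0.24 to 0.43 for Rel and -0.36 to 0.25 for Rela leave room for moderate changes either way.

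Nfkbia encodes IkB-alpha, the inhibitor that is broken down and remade fastest after a signal. Its probe set 1420089_at read 1610 in WT and 3126 and 2706 without Rptor. Both Rptor-null pools were well above WT, by more than they differed from each other. The mean of 2916 ± 297 (SD, n = 2) was 1.80-fold above WT, a log2 difference of 0.85 ± 0.11 (SE; adjusted p = 0.0127, limma). This value lay at percentile 98.7 of all log2 differences. The call was lost without the variance trend (adjusted p = 0.0631).

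The other Nfkbia probe sets did not follow it. The brightest, 1420088_at, read 24522 in WT against 21371 and 21759 in the Rptor-null pools, both below WT (log2 difference -0.19 ± 0.07, SE; adjusted p = 0.144, limma). The probe set 1438157_s_at read 17457 in WT against 19051 and 18109 in the Rptor-null pools, both above WT (0.09 ± 0.07, SE). The probe sets 1448306_at and 1449731_s_at read 6924 and 8145 in WT, and both Rptor-null pools were below WT on each. Their log2 differences were -0.19 ± 0.12 (SE) and -0.07 ± 0.08 (SE). Over the 5 probe sets the log2 differences ran from -0.19 to 0.85, with 2 above and 3 below WT. The mean of the 5 gave a log2 difference of 0.10 ± 0.09 (SE; adjusted p = 0.5, limma over 12721 genes). The annotation used here gives no position within the transcript for these probe sets, so whether 1420089_at reads a different part of it was not tested.

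Nfkbib and Nfkbie encode IkB-beta and IkB-epsilon, which hold NF-kB pairs in the cytoplasm with slower turnover than IkB-alpha. Nfkbie was below WT on both its probe sets. Probe set 1431843_a_at read 378 in WT against 243 and 290 in the Rptor-null pools, and 1458299_s_at read 1117 in WT and 972 and 802. The log2 differences were -0.49 ± 0.16 (SE) and -0.33 ± 0.14 (SE), which did not pass as single probe sets (adjusted p = 0.116 and 0.203, limma). Taken as the mean of both, Nfkbie had a log2 difference of -0.41 ± 0.11 (SE) with an adjusted p of 0.0421 (limma over 12721 genes). Of the 6 genes with several probe sets it was the only one whose probe sets all differed from WT in 1 direction in both pools.

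The Nfkbib probe sets were on opposite sides. The probe set 1421266_s_at read 401 in WT against 270 and 320 in Rptor-null cells, with a log2 difference of -0.43 ± 0.16 (SE; adjusted p = 0.149, limma). The dim probe set 1446718_at read 60.3 in WT against 79.7 and 79.6 in Rptor-null cells, with a log2 difference of 0.33 ± 0.17 (SE; adjusted p = 0.286, limma). No single direction can be given for the gene.

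Nfkbiz encodes IkB-zeta, an atypical nuclear IkB that can promote as well as restrain transcription of NF-kB targets. Its probe set 1417483_at read 4120 in WT against 5007 and 4943 in the Rptor-null pools, which lay close together and above WT. The log2 difference was 0.27 ± 0.08 (SE), or 1.21-fold, with an adjusted p of 0.095 (limma), and it passed after median centring (adjusted p = 0.0427). On 1448728_a_at (675 in WT, 664 and 789 in the Rptor-null pools) and 1457404_at (1902, 1888 and 2211) the WT value lay between the Rptor-null pools. Their log2 differences were both 0.10, so all 3 estimates had the same sign while only the first had pools apart from WT.

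Tnfaip3 encodes A20, the ubiquitin-editing enzyme that shuts off signals to the IkB kinases. The probe set 1433699_at read 7274 in WT against 7788 and 7464 in Rptor-null cells, with a log2 difference of 0.07 ± 0.08 (SE; adjusted p = 0.665, limma). Its 95% interval of -0.12 to 0.26 is among the narrowest of the members. The dimmer 1450829_at read 174 in WT against 138 and 110 in Rptor-null cells, with a log2 difference of -0.45 ± 0.19 (SE; adjusted p = 0.201, limma). Both pools were thus above WT on the first probe set and below it on the second.

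**Figure D3:**
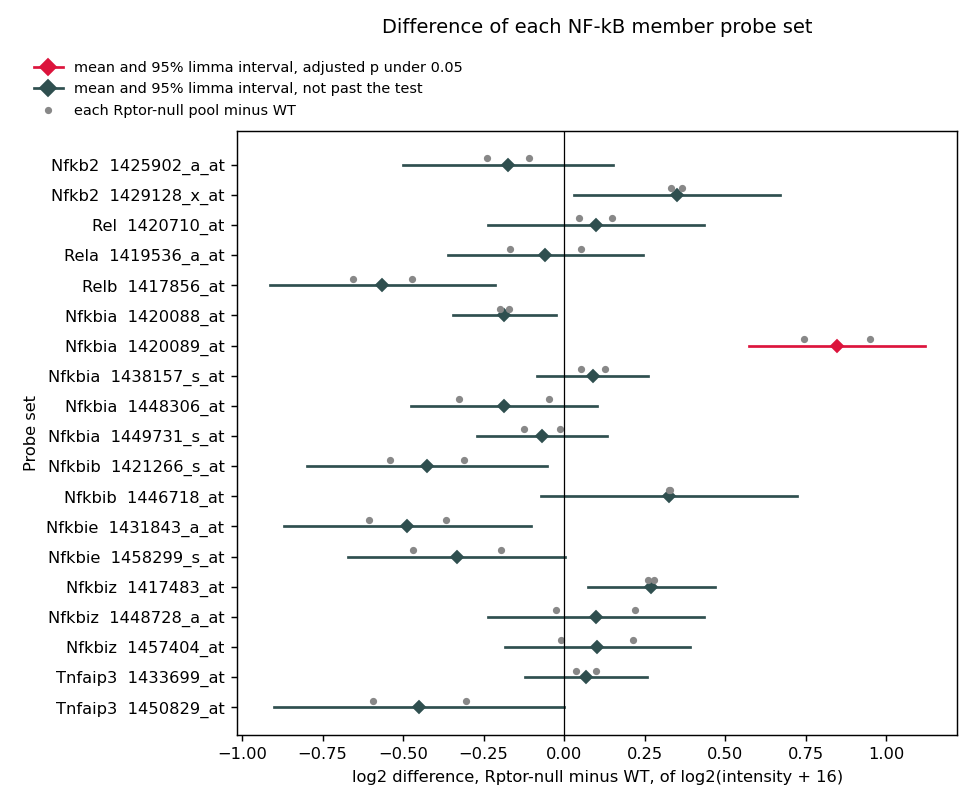
Log2 difference (Rptor-null minus WT, on log2(intensity + 16)) of each member probe set with its 95% limma interval, and the difference of each Rptor-null pool from WT as small grey points. Nfkbia 1420089_at (red, 0.85) is past the test and the other 18 are not.

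Set among all fitted probe sets, the members spread over most of the distribution. Relb at percentile 6.85 and Nfkbie 1431843_a_at at percentile 9.47 lay lowest, and Nfkb2 1429128_x_at at percentile 89.9 and Nfkbia 1420089_at at percentile 98.7 highest. The median size of the log2 difference, whatever its sign, was 0.19 for the members and 0.20 for all probe sets.

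**Figure D4:**
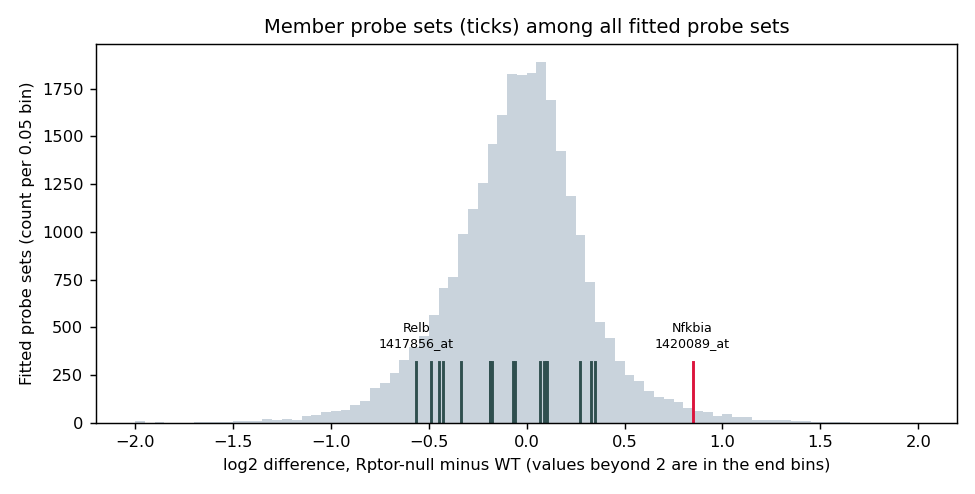
Histogram of the log2 differences (Rptor-null minus WT) of all 27022 fitted probe sets in bins of 0.05, with the 19 member probe sets as ticks, red for the one past the test. The members lie between -0.56 and 0.85.

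The other genes of the pathway were grouped by role in 7 lists, each gene read on its brightest probe set. Of 84 tested genes 8 were higher, 9 lower and 67 not past the test, a share of 20.2% beside 10.4% of all 12721 genes (2.76% higher and 7.62% lower). The lists were chosen with earlier results of these data known, so the higher share is no test of the pathway. The part of the T cell and macrophage marker differences in it was not tested. After quantile normalization the split was 10 higher and 7 lower. The calls lay in 4 of the 7 lists, mostly among receptors and target genes. The median log2 difference over the 84 genes was -0.06, the same as the -0.06 of all genes.

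None of the 9 tested IkB kinases and activators passed, with 1 at an unadjusted limma p under 0.05. Ikbkb, the catalytic IkB kinase of the fast branch, read 2643 in WT against 2532 and 2759 in the Rptor-null pools. Ikbkg, the scaffold NEMO, read 339, 318 and 332, and Map3k14, the kinase NIK of the slow branch, read 205, 164 and 214. The other fitted probe sets of Ikbkg did not pass and disagreed. Their log2 differences ran from -0.56 (1435647_at, adjusted p = 0.101) to 0.23 (1421208_at, adjusted p = 0.462, limma). Those of Ikbkb did not pass either and ran from -0.42 (1426333_a_at) to 0.21 (1432275_at). Chuk was not analysed here. The list median was -0.12 (-0.03 after quantile normalization).

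The antigen receptor branch likewise had 0 of 5 genes past the test on the brightest probe set, and 0 at an unadjusted limma p under 0.05, with a median of -0.06 (0.04 after quantile normalization). Bcl10, which links the receptor signal to the IkB kinases, read 1532 in WT against 1333 and 1376 in the Rptor-null pools. Malt1, its partner protease, read 991 in WT and 1062 and 991. Of their other 5 probe sets 2 passed. Bcl10 1418972_at fell from 321 to 177 and 168 (log2 difference -0.84, adjusted p = 0.0246, limma) and Malt1 1456126_at from 1174 to 755 and 768 (log2 difference -0.62, adjusted p = 0.0242, limma). The remaining 3 were above WT in both Rptor-null pools and did not pass. Bcl10 1418971_x_at had a log2 difference of 0.09 (adjusted p = 0.695), Bcl10 1443524_x_at of 0.20 (adjusted p = 0.417) and Malt1 1445068_at of 0.29 (adjusted p = 0.484). As with Nfkbia, the probe sets of each gene disagreed. These probe sets were chosen for the text after their values were seen.

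The receptor-proximal adaptors and ligases had 0 of 9 genes past the test and 3 at an unadjusted limma p under 0.05. Among 16 genes of ubiquitin editing and other brakes 1 was higher and 1 lower, beside 2.76% and 7.62% of all genes. The list median was -0.16 (-0.05 after quantile normalization). Itch, a ubiquitin ligase that works with A20, rose from 906 to 1224 and 1279 (log2 difference 0.46, adjusted p = 0.0473, limma). Its dim probe sets 1431316_at and 1459332_at had log2 differences of 0.32 and -0.13 and did not pass. Pdlim2, a nuclear ligase that promotes the breakdown of p65, fell from 527 to 341 and 359 (log2 difference -0.57, adjusted p = 0.046). Cyld, a deubiquitinase that restrains the pathway, read 2001 in WT against 1705 and 1726 in the Rptor-null pools (adjusted p = 0.218).

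The other IkB proteins and parts of the ligase that marks IkB had 2 of 6 genes lower and 0 higher, beside 7.62% and 2.76% of all genes. Nfkbid, the nuclear inhibitor IkB-NS, fell from 1540 to 1128 and 1112 (log2 difference -0.45 ± 0.10, SE; adjusted p = 0.0438, limma). Skp1, a core part of the ligase and of many others, fell from 4182 to 2586 and 2395 (log2 difference -0.75, adjusted p = 0.0117). Its second probe set, 1423149_at, read 1088 in WT against 978 and 874 in the Rptor-null pools and did not pass (-0.23, adjusted p = 0.292). Bcl3, a nuclear IkB that works with p50 and p52, read 450 in WT against 373 and 331 in the Rptor-null pools (adjusted p = 0.198).

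Of 12 receptors that feed the pathway 4 were lower and 1 higher, beside 7.62% lower and 2.76% higher of all genes. Tnfrsf18, the gene of GITR, on which the cells were sorted, fell from 3837 to 1549 and 1453 (log2 difference -1.35 ± 0.10, SE; adjusted p = 0.00708, limma). Tnfrsf4, or OX40, fell from 2402 to 1317 and 1163 (-0.95), and Cd27 from 1665 to 947 and 921 (-0.82). Tnfrsf9, or 4-1BB, fell from 1078 to 596 and 595 (-0.84). Its dimmer probe set 1428034_a_at fell from 309 to 90.8 and 92.0 (-1.60, adjusted p = 0.00924, limma). Tnfrsf1b, Tnfrsf1a and Tnfrsf11a, receptors for TNF and for RANK ligand in the same list, were above WT in both Rptor-null pools and did not pass. Tnfrsf1b read 1998 in WT against 2065 and 2096 (0.06, adjusted p = 0.764), Tnfrsf1a 918 against 1152 and 1367 (0.44, adjusted p = 0.0894) and Tnfrsf11a 60.2 against 78.1 and 81.0 (0.33, adjusted p = 0.289). The gene that rose, Tlr4, the endotoxin receptor, went from 115 to 188 and 228 (0.77, adjusted p = 0.0473, limma). It was named after its value was seen, because the count is 1. T cell markers were lower (median -0.64) and macrophage markers higher (median 0.58) on the same arrays, and their part in these differences was not tested.

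Of 28 textbook NF-kB target genes 6 were higher and 3 lower, beside 2.76% higher and 7.62% lower of all genes. Vcam1, an adhesion molecule, rose from 2742 to 6273 and 6323 (log2 difference 1.19 ± 0.08, SE; adjusted p = 0.00708, limma). The prostaglandin synthase gene Ptgs2 rose from 38.4 to 113 and 88.8 (1.10), the cytokine Il6 from 50.7 to 104 and 123 (0.95) and the chemokine Ccl4 from 1013 to 1909 and 1919 (0.91). The WT value of Ptgs2 was near the filter level of 35.0. Its other probe set, 1417263_at, read 9.60 in WT against 10.3 and 10.3 in the Rptor-null pools, under the filter, and was not tested. Il1b (144 to 263 and 250, 0.77) and Ccl3 (890 to 1291 and 1627, 0.69) were the remaining higher targets. The 3 lower targets were Nfkbid, Ltb (10428 to 6814 and 7220, -0.57) and Gadd45b (2209 to 1468 and 1214, -0.72). Il1b, Ccl3, Ltb and Gadd45b were named after their values were seen. Of the other Vcam1 probe sets, 1415989_at also rose, from 437 to 986 and 759 (0.96, adjusted p = 0.0228, limma). Vcam1 1451314_a_at (0.50, adjusted p = 0.0754) and a dimmer probe set of Gadd45b (-0.18, adjusted p = 0.572) did not pass. Bcl2l1 and Icam1, also in the list, read 452 and 1097 in WT with log2 differences of -0.08 and -0.06. On the same arrays the marker list medians were 0.58 for macrophages and monocytes, 0.92 for basophils and mast cells and -0.64 for T cells. Their part in the higher and lower targets was not tested.

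**Figure D5:**
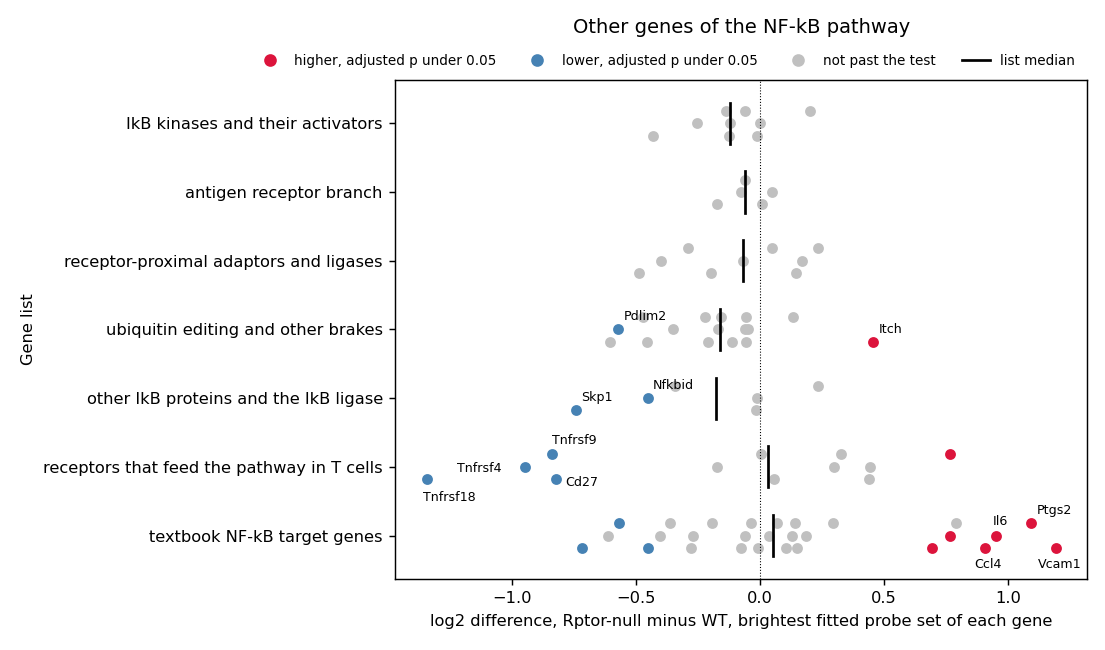
Log2 difference (Rptor-null minus WT) of each tested gene in 7 lists of the NF-kB pathway, on its brightest fitted probe set, with the list median as a black bar. Red and blue points are the 8 higher and 9 lower genes past the test (Nfkbid is drawn in 2 lists), and grey points are not past it.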

How the data were processed

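The 3 arrays were grouped by sample title. The table deposited by the authors holds probe-set intensities on a linear scale; MAS5 is named, with no version, in the submitters' processing notes, and the background correction, summary and scaling target are not given in the sources used here. Median intensities were 52.8, 55.0 and 54.9, and whether arrays were scaled to each other is not given. For arrays no count gives a depth, and their number limits the precision.

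Of 45101 probe sets, 64 are controls, 34945 name 1 gene, 932 several and 9160 none. Intensities were converted to log2(intensity + 16), which understates the change of dim genes, and probe sets above the 40th percentile (35.0 units) of the level averaged over both groups were kept. All 27022 were fitted with limma 3.58.1 in R 4.3.3 (lmFit, eBayes with a mean-variance trend; two-sided, Benjamini-Hochberg, threshold 0.05). The 1 residual degree of freedom comes from the Rptor-null arrays (prior 5.85), and WT is assumed to vary like them. The WT pool held 4 mice and each Rptor-null pool 8, so WT may vary more. Each SE, interval and p-value rests on this assumption, which 1 WT array cannot test. The titles call the Rptor-null pools biological replicates. The script was tested on simulated data in which WT was made to vary like the Rptor-null arrays, so that run is no check of the assumption.

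Pathway genes were read on the probe set with the highest level, 84 of 93 listed genes being tested. Named genes are all members, Rptor, 10 fixed pathway genes and up to 4 called genes a list. Members and lists were chosen with earlier results of these data known. Alternatives covered the pseudocount, filter, scaling, variance prior, probe-set choice and leaving out an array.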

Additional observations from a re-analysis of the deposited data

How the results depend on the processing

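Of the 19 NF-kB probe sets 1 passed the test, beside 8.92% of all probe sets. The count was 2 of 18 with a filter at the 60th percentile (16.2% of all probe sets). It was 3 after median centring (12.3% of all) and 0 without the variance trend. Without the trend only 2 of all 27022 probe sets passed (0.0074%), so the calls were lost over the whole array. There 6 of the 19 had an unadjusted limma p under 0.05. The Nfkbia probe set 1420089_at passed under the other 8 tested settings in which it was fitted. With 1 probe set a gene it was not fitted, and Relb was the 1 called of 9, beside 15% of all 12721 genes. The pathway count of 17 was 0 without the variance trend (27 at an unadjusted limma p under 0.05), and of the 17 genes 12 stayed called with no filter, 14 without cross-matching probe sets, 15 after quantile normalization, 15 when probe sets under the 60th percentile were dropped, 16 with a pseudocount of 64 or a robust variance prior, and 17 with a pseudocount of 1, with 1 probe set a gene and after median centring. Both Rptor-null pools lay on one side of WT for 16 probe sets (79.6% of all probe sets), and for 8 of the 9 fitted with 1 probe set a gene. The share of all genes on one side in that setting is not given here. Quantile normalization raised the share of higher calls over all probe sets from 31.5% to 49.1% (43.3% after median centring), and Rela turned to 0.065. When a gene's probe sets were averaged in place of taking the brightest, Nfkb2 turned to 0.087, Nfkbia to 0.10 and Tnfaip3 to -0.19. The cause was not tested, beyond the probe sets' own disagreement. In that fit Relb (adjusted p = 0.0239) and Nfkbie (adjusted p = 0.0421) passed (limma over 12721 genes), and the other member genes did not. The share of all genes past the test in that fit is not given here. Leaving out an Rptor-null array left no residual degree of freedom, so that no test was run. The member median was then 0.04 without the first and -0.02 without the second. No paired analysis was possible with 1 WT array and 2 Rptor-null arrays. Precision is limited by the 3 arrays.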
